A study of Homo sapiens with 16 samples.

Results

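The genes of oxidative phosphorylation that the nucleus encodes were followed through 4 bladder cancer cell lines given CM-1758, an inhibitor of histone deacetylases. They were chosen by symbol: NDUFA, NDUFB, NDUFC, NDUFS and NDUFV for complex I, SDHA to SDHD for complex II, UQCR for complex III, COX4 to COX8 for complex IV and ATP5 for complex V, without the NDUFAF assembly factors and without pseudogenes. The rule found 93 of the 35993 gene rows. Of these, 86 are genes of subunits, their isoforms or the inhibitor of ATP synthase, 2 are near-copies of a subunit gene (UQCRHL and ATP5MGL), 2 are readthrough rows that join a member to its neighbour, and 3 are noncoding genes beside a member. A filter on low counts kept 89 rows for testing, among 21297 genes in all. COX6A2, COX7A1 and COX8C had 0 counts in every library and COX4I2 had 1 count in a single J82 control library, so these 4 were not tested.

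Oxidative phosphorylation makes ATP in the inner mitochondrial membrane. Complex I takes electrons from NADH and complex II takes them from succinate, complex III hands them to cytochrome c, and complex IV passes them to oxygen. The protons pumped on the way drive ATP synthase, or complex V. Most subunits are nuclear, while mitochondrial DNA encodes a small catalytic set, and several complex IV subunits exist as a common isoform and an isoform restricted to testis, muscle or lung.

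The lines were 253J, J82, RT112 and TCCSUP, all wild type by their labels. Each was cultured for 48 h with CM-1758 at its own IC50 or with 0.01% DMSO as the vehicle control, with 2 libraries in each of the 8 groups and 16 in all. TCCSUP was grown in EMEM and the other lines in DMEM, so medium and line cannot be told apart, and the dose was set for each line. The libraries held 22506431 to 32537104 counts each, of which the members took 0.532% to 0.896%. Keratins KRT8, KRT18 and KRT19 were present in every control library, from 112 CPM (counts scaled to a common library total) of KRT19 in TCCSUP to 3406 CPM of KRT8 in J82. UPK3A, a marker of the mature urothelium, was at 0 CPM in every control library and UPK2 was at 0 CPM in 253J, J82 and TCCSUP. Other markers set the control lines apart. UPK1B was at 1298 to 1517 CPM in RT112 and at 0 CPM in 253J and J82. EPCAM was at 212 to 220 CPM in RT112 and 0.398 to 0.536 CPM in 253J. KRT7 was at 4.53 to 5.36 CPM in 253J and 1425 to 1991 CPM in J82. The mesenchymal marker VIM was at 1307 to 1690 CPM in 253J and 0.169 to 0.719 CPM in RT112. CDH2 was at 529 to 540 and 4.54 to 4.84 CPM in these lines, but FN1 was at 1028 to 1045 and 879 to 953 CPM. In TCCSUP, VIM was at 3.75 to 3.96 CPM and CDH2 at 531 to 636 CPM. The epithelial marker CDH1 was at 171 to 191 CPM in 253J and 461 to 473 CPM in RT112. J82 stood apart in its replicates. Its replicate 3 lay above its replicate 1 over the members by a median of 0.42 (log2) in control and 0.37 with CM-1758, while in the other groups the median difference between replicates was -0.22 to 0.11.

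Promoter sequences are given for the genes the results turn on, as 250 bases before the start site, read 5′ to 3′ on the strand of the gene from RefSeq (GRCh38.p14). The first pair codes for the common and the testis isoform of a complex IV subunit, and the capitals mark CTTCCGG (the reverse complement of CCGGAAG, an ETS site) and CCGCCC (the reverse complement of GGGCGG, an SP site).
COX6B1, chr19:35648073-35648322 (plus strand): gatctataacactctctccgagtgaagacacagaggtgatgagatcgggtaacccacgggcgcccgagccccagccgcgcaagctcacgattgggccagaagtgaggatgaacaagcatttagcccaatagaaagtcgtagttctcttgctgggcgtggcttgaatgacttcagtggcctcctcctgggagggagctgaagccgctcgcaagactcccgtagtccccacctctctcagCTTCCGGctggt
COX6B2, chr19:55354720-55354969 (minus strand): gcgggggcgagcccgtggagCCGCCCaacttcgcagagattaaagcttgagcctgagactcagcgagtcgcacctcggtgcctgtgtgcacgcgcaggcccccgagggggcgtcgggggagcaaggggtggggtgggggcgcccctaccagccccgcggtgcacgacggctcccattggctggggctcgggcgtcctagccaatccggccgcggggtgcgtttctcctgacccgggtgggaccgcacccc

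COX7B2 codes for the testis isoform of another complex IV subunit, and none of the motifs searched was found in its window.
COX7B2, chr4:46909246-46909495 (minus strand): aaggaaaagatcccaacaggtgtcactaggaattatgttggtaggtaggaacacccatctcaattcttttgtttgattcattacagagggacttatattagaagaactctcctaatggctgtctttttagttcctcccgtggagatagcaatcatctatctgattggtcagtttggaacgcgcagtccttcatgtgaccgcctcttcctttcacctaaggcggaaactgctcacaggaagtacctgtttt

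The next 4 belong to genes that fell in every line. Capitals mark GCATGCGC or its reverse complement GCGCATGC, the site of the transcription factor NRF1, together with GGGCGG or CCGCCC for SP and TGACGTCA, a cyclic AMP response element.
ATP5MC2, chr12:53676084-53676333 (minus strand): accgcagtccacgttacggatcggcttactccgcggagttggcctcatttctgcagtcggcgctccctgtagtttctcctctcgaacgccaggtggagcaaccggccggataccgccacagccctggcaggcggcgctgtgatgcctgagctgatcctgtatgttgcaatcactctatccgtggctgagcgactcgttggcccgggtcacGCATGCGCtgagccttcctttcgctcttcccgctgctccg
NDUFA6, chr22:42090773-42091022 (minus strand): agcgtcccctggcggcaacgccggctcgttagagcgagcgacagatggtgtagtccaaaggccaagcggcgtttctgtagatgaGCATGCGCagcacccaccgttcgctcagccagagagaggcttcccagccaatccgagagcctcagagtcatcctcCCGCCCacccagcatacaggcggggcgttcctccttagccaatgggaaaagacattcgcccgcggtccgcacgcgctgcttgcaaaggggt
NDUFS6, chr5:1801157-1801406 (plus strand): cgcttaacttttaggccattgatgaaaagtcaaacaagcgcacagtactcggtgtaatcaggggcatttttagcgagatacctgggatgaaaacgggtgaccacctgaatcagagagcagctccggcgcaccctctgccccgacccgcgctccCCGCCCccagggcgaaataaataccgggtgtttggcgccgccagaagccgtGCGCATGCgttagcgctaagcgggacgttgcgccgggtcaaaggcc
NDUFB2, chr7:140696458-140696707 (plus strand): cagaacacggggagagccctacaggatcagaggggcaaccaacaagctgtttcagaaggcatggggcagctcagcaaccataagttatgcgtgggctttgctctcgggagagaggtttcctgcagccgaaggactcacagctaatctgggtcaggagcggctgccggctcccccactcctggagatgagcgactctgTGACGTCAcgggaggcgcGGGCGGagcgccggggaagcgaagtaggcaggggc

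The NRF1 letters began 40 bases before the start site in ATP5MC2, 166 in NDUFA6 and 46 in NDUFS6. They were in 3 of the 7 matched members that fell in every line, and not in the windows of NDUFA9, NDUFA13, NDUFB2 and NDUFS8. ATP5MC2 has other start sites, and of the 3 windows the letters were in the first and the second, 58 bases before the start in the latter, but not in the third. Windows of 250 bases before to 50 after the start were matched for 70 of the 88 protein-coding members. GCATGCGC on either strand was in 14 of these 70 (20%), against 4.96% of 14866 protein-coding promoters. AAGATGGC, a YY1 site, was in 12 (17.1%, against 4.80%), and CCGGAAG was in 21 (30%, against 16.8%). These last 2 motifs can overlap by the letters AAG. GGGCGG was about as frequent in the members (62.9%) as in all promoters (65.3%), as was TATAAA (10% against 12.2%), and TGACGTCA was in 7.14% of the members and 3.01% of all. In RT112, 9 of the 14 members with the NRF1 letters and 30 of the 54 tested members without them were called lower. The median log2 fold change with and without the NRF1 letters was -0.60 and -0.49 in RT112, 0.14 and 0.21 in 253J, -0.03 and -0.03 in J82, and -0.08 and 0.00 in TCCSUP.

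With CM-1758 the members' calls were not split alike in the 4 lines, and RT112 differed most from the others. Calls are those with adjusted p below 0.05 from the quasi-likelihood F test in edgeR, with the adjustment made over all genes tested. In 253J, 28 of the 89 members were called higher (31.5%, against 28.8% of all genes) and 17 lower (19.1%, against 22.4%). In J82, 10 were called higher (11.2%, against 24%) and 16 lower (18%, against 18.5%). With the replicate numbers as a block in the fit, 17 were called higher in J82. The share of all genes in that fit is not given. In RT112, 4 were called higher (4.49%, against 27.4%) and 49 lower (55.1%, against 20.2%). In TCCSUP, 13 were called higher (14.6%, against 32%) and 21 lower (23.6%, against 22.1%). The members' median log2 fold change was lowest in RT112, at -0.50, followed by -0.06 in TCCSUP, 0.02 in J82 and 0.22 in 253J, while that of all genes was 0.12, 0.20, 0.05 and 0.10. Single libraries moved these counts. The 28 higher members in 253J became 13 without control replicate 3 and 16 without CM-1758 replicate 1, and the 17 lower became 10 without control replicate 2 and 8 without CM-1758 replicate 3. In J82 the 10 higher became 6 without control replicate 1, 18 without control replicate 3, 23 without CM-1758 replicate 1 and 4 without CM-1758 replicate 3, and the 16 lower became 9 without control replicate 3 and 8 without CM-1758 replicate 1. In RT112 the 49 lower became 30 without control replicate 1 and 28 without CM-1758 replicate 2, and the 4 higher became 2 without CM-1758 replicate 1. In TCCSUP the 13 higher became 6 to 8 without control replicate 1, control replicate 2 or CM-1758 replicate 1, and the 21 lower became 12 without control replicate 2 and 11 without CM-1758 replicate 2.

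**Figure D1:**
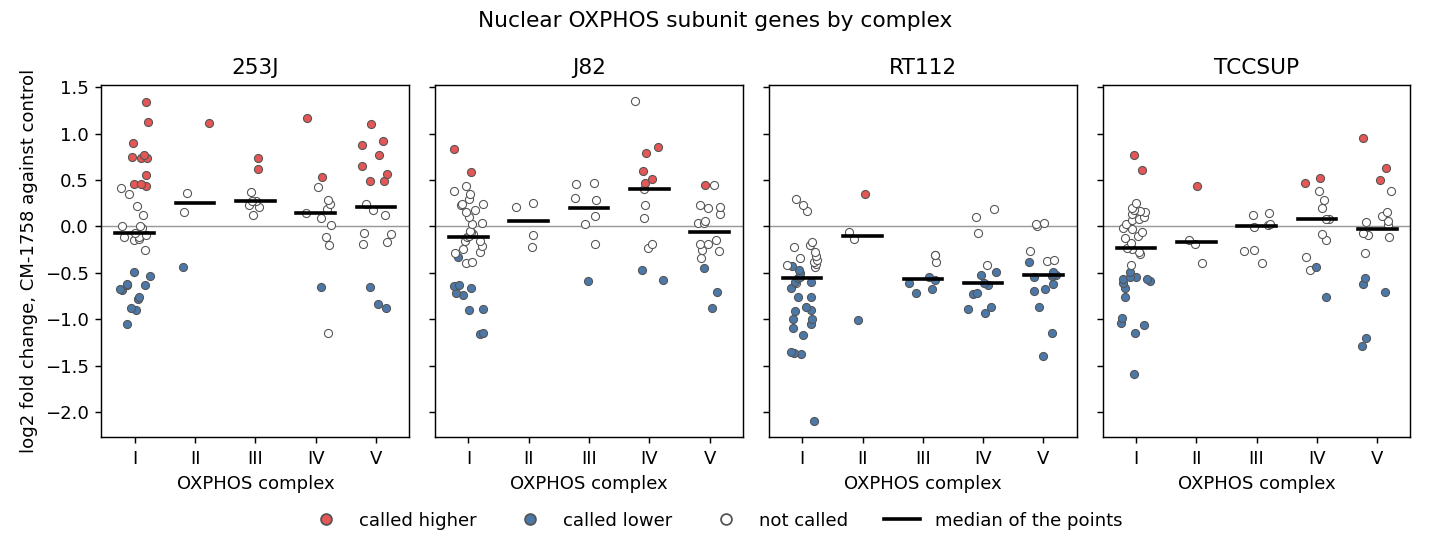
Log2 fold change of CM-1758 against control (vertical axis) for 80 subunit genes, grouped by complex I to V (horizontal axis), 1 panel for each cell line. Points are genes, red where called higher, blue where called lower and white where not called, and bars are medians of the points drawn. COX6B2 and COX7B2 are left out because of their scale, and in RT112 the medians of all 5 complexes lie below 0.

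These splits depend on how the libraries are scaled. Library size alone, without the TMM factors, raised the median of all genes by 0.14 to 0.31 (log2), and then 47 members were higher and 7 lower in 253J, 19 and 13 in J82, 4 and 37 in RT112, and 29 and 8 in TCCSUP. The direction of the median in TCCSUP thus turned with the scaling, while RT112 stayed below 0 and 253J above 0. As a share of all counts, the members went from 0.654% ± 0.028 to 0.848% ± 0.049 in 253J (SD, n = 2), were 0.745% ± 0.126 and 0.817% ± 0.111 in J82, went from 0.770% ± 0.016 to 0.593% ± 0.052 in RT112, and were 0.554% ± 0.030 and 0.633% ± 0.029 in TCCSUP. The 2 treated libraries lay above both controls in 253J and TCCSUP and below them in RT112. In J82 they overlapped with the controls, though the treated share was the higher for each replicate number, at 0.739% against 0.656% and 0.896% against 0.835%. With totals scaled by TMM, the share was 0.591% and 0.635% in TCCSUP control and 0.587% and 0.542% with CM-1758, so that the direction turned there. The scaled share overlapped in 253J, at 0.736% and 0.673% against 0.791% and 0.721%, and in RT112 both treated libraries stayed below both controls (0.561% and 0.493% against 0.780% and 0.736%). In bulk RNA, fewer cells with a transcript and less of it per cell cannot be told apart. A set of 7 abundant small noncoding RNA genes took a mean of 10.4% of counts in 253J control and 14.95% with CM-1758, 13.0% and 14.6% in J82, 10.7% and 10.7% in RT112, and 12.3% and 20.3% in TCCSUP. Without those genes in the total, the members' mean share was 0.730% and 0.998% in 253J, 0.857% and 0.959% in J82, 0.863% and 0.664% in RT112 and 0.631% and 0.794% in TCCSUP, with the same direction in each line.

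The members are mostly short and abundant, so other genes of that kind were set beside them. After the values were seen, coding genes outside the list were taken that were no longer than 1175 bases and had a mean of at least 5.26 log2 CPM, which are the members' upper quartile of length and lower quartile of level. In RT112, 41.9% of these 527 genes were called lower and their median was -0.32, against 57.0% and -0.52 for the 86 members with a length. In TCCSUP 42.9% were called lower with a median of -0.31, below the -0.08 of the members with a length. In J82 the median was -0.15, against -0.03 for the members, and in 253J it was 0.00, against 0.19. The 64 ribosomal protein genes within both limits had medians of -0.55 in RT112, -0.20 in J82, -0.12 in 253J and 0.10 in TCCSUP.

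COX6B2 was the single member called higher in all 4 lines, a pattern found in 6.69% of all genes. It codes for the testis isoform of a small complex IV subunit that faces the space between the membranes and lies at the contact between the monomers. In 253J it had 2 and 0 counts in control and 15 and 12 with CM-1758, at least 4.47-fold higher against a floor of 3 counts per library. In J82 the controls held 0 counts and the treated libraries 56 and 77, at least 20.7-fold higher. In TCCSUP, 0 counts in control became 231 and 161, at least 64.1-fold higher. RT112 had a measurable base, with 1.01 and 1.15 CPM in control and 9.82 and 11.3 CPM with CM-1758, which was 9.73-fold higher (log2 fold change 3.28 ± 0.37 SE, adjusted p = 1.26e-05). In no line did the groups overlap.

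COX6B1, the common isoform, took another course. Its levels were 53.3 and 55.5 CPM in 253J control and 69.0 and 54.5 CPM with CM-1758, which overlap. It fell in J82 (log2 fold change -0.47 ± 0.17, adjusted p = 0.039), in RT112 (-0.87 ± 0.17, adjusted p = 8.59e-04) and in TCCSUP (-0.43 ± 0.18, adjusted p = 0.049). Per kilobase of transcript, COX6B2 made up 0.447% of the sum of both genes in RT112 control and 7.42% with CM-1758, and in TCCSUP it reached 7.50% from 0. In J82 it reached 1.25% and in 253J 0.275%, so COX6B1 remained the main form in every group. The shares depend on the lengths used, which are medians over annotated transcripts, 1663 bases for COX6B2 and 567.5 for COX6B1. Without division by length, the means in treated RT112 were 10.6 CPM for COX6B2 and 45.0 CPM for COX6B1.

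**Figure D2:**
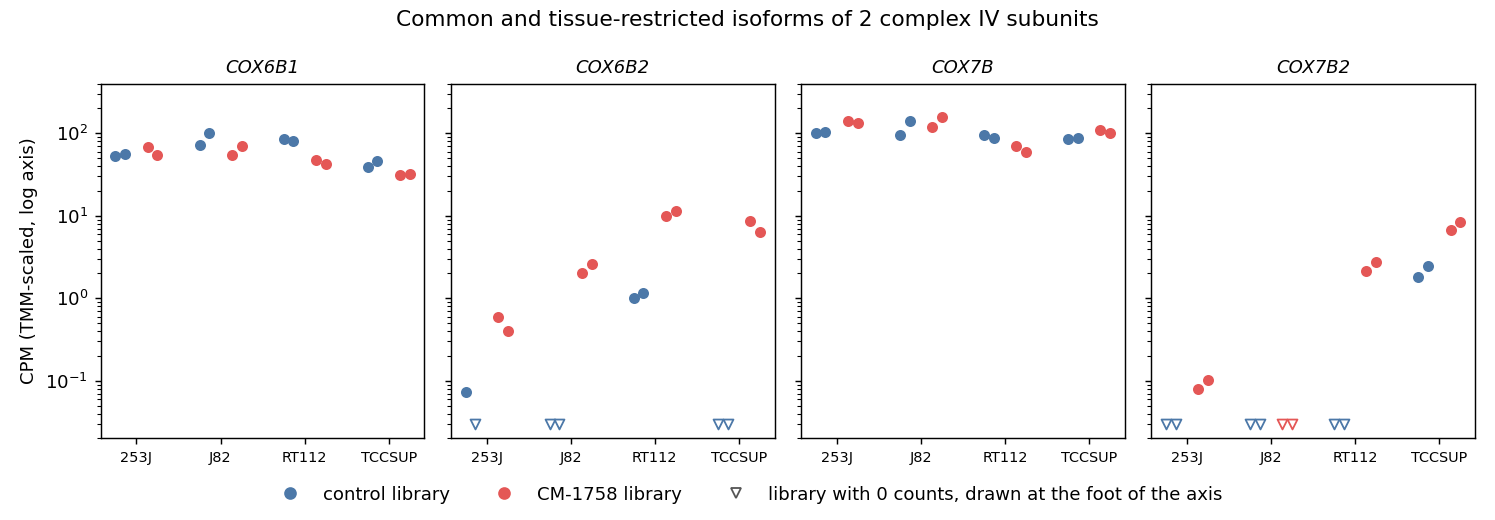
TMM-scaled CPM on a log axis (vertical) of COX6B1, COX6B2, COX7B and COX7B2 in every library, by cell line (horizontal axis), control in blue and CM-1758 in red. Open triangles at the foot of the axis are libraries with 0 counts. COX6B2 lies higher with CM-1758 in all 4 lines and COX7B2 in RT112 and TCCSUP, far below COX6B1 and COX7B.

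COX7B2 rose where COX6B2 was also highest. In RT112 both controls held 0 counts and the treated libraries 54 and 72, at least 24.3-fold higher. In TCCSUP it was present in control, at 1.82 and 2.49 CPM, and reached 6.66 and 8.46 CPM (log2 fold change 1.81 ± 0.36, adjusted p = 0.0015). In 253J it passed the test on 0 and 0 against 2 and 3 counts, which is at the floor and gives no fold, and in J82 every library held 0. COX7B, the common isoform, was at 95.4 and 87.7 CPM in RT112 control and 70.7 and 59.2 CPM with CM-1758, and there it fell (log2 fold change -0.50 ± 0.17, adjusted p = 0.029). Per kilobase, COX7B2 was 3.71% of the pair in treated RT112, and in TCCSUP it went from 2.51% to 6.89%. NDUFA4L2, another alternative isoform, stayed at group means of at most 0.991 CPM in every group and was called in no line, and the muscle isoforms COX6A2 and COX7A1 had 0 counts in all 16 libraries.

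The 8 members called lower in all 4 lines were ATP5MC2, ATP5MF, NDUFA13, NDUFA6, NDUFA9, NDUFB2, NDUFS6 and NDUFS8, which is 8.99% of the members, against 6.01% of all genes. Of these, 6 belong to complex I and 2 to the membrane part of ATP synthase. NDUFB2, an accessory subunit in the membrane arm, had the lowest log2 fold change of any member in RT112, J82 and TCCSUP. Its levels were 49.2 and 45.3 CPM in 253J control and 31.7 and 23.3 CPM with CM-1758, and 61.2 and 84.1 against 26.5 and 38.3 CPM in J82. In RT112 they were 58.2 and 54.0 against 14.4 and 11.7 CPM, and in TCCSUP 63.1 and 65.2 against 21.4 and 21.0 CPM. It was thus 4.29-fold lower in RT112 (adjusted p = 1.61e-06), 3.02-fold in TCCSUP (1.17e-05), 2.24-fold in J82 (2.53e-04) and 1.72-fold in 253J (0.0039), and the size of the fall differed between the lines (interaction adjusted p = 0.0061).

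NDUFA9, which sits where the arms of complex I meet, was at 113 to 156 CPM in the 8 control libraries and at 53.3 to 85.1 CPM in the 8 treated ones, without overlap. Its fall was 2.07-fold in RT112, 2.06-fold in TCCSUP, 1.64-fold in J82 and 1.597-fold in 253J. NDUFA13, also known as GRIM-19 for its part in cell death, was lower by 2.56-fold in RT112, 2.22-fold in TCCSUP, 1.84-fold in 253J and 1.58-fold in J82. In each line both treated libraries of NDUFA13 lay under both controls, at 37.9 to 69.5 CPM against 82.2 to 123 CPM. NDUFS8, a core subunit that carries iron-sulfur clusters, fell most in J82, from 111 and 139 to 67.1 and 67.7 CPM, and least in RT112 (log2 fold change -0.50 ± 0.18, adjusted p = 0.032). NDUFA6 and NDUFS6, accessory subunits of the matrix arm, had log2 fold changes of -0.61 to -0.91 and of -0.56 to -1.0004. ATP5MF had -0.66 to -1.28, and since the row ATP5MF-PTCD1 shares its exons, the counts of ATP5MF are uncertain. That readthrough row held 0 and 289 counts in the 2 treated 253J libraries, and its call of higher in 253J ended without that second library or without either 253J control.

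**Figure D3:**
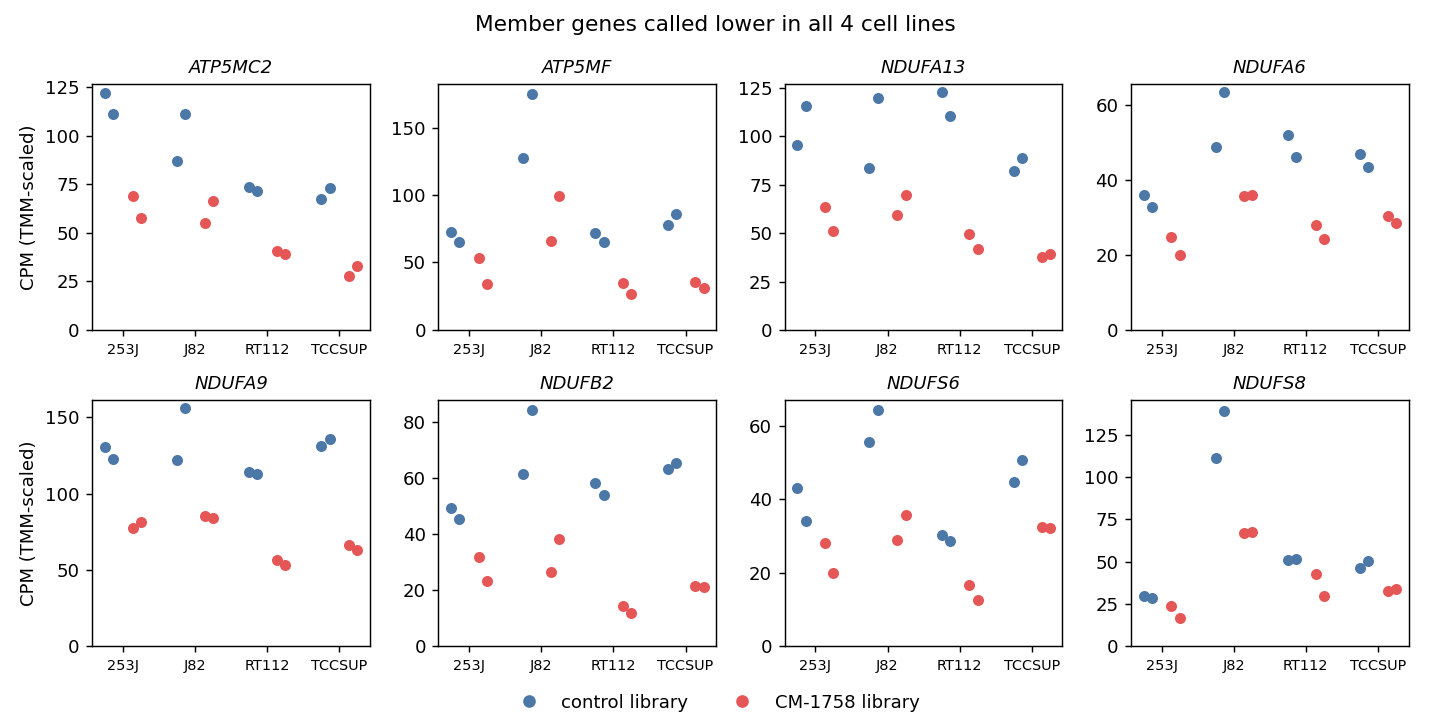
TMM-scaled CPM (vertical axis, from 0) in every library of the 8 members called lower in all 4 lines, by cell line (horizontal axis), control in blue and CM-1758 in red. In each gene and line both treated libraries lie below both controls.

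Without 253J CM-1758 replicate 3 only ATP5MC2, NDUFA13 and NDUFA9 were still called lower in all 4 lines. Library size alone left ATP5MC2, NDUFA13, NDUFA9 and NDUFB2.

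ATP5MC1, ATP5MC2 and ATP5MC3 are 3 genes for a single protein, subunit c, whose ring turns in the membrane as protons pass. Their mature protein is the same, and the genes differ in the targeting sequence that is cut off. ATP5MC2 fell in all 4 lines, with log2 fold changes of -1.21 in TCCSUP, -0.88 in 253J, -0.87 in RT112 and -0.71 in J82. ATP5MC3 rose in 253J, from 81.3 and 77.5 to 153 and 140 CPM (log2 fold change 0.88 ± 0.16, adjusted p = 2.44e-04), and in J82 (0.44 ± 0.15, adjusted p = 0.032), and it fell in RT112 (-0.62 ± 0.16, adjusted p = 0.0040). In TCCSUP it was at 60.5 and 68.1 CPM in control and 87.7 and 80.0 CPM with CM-1758, which did not pass (adjusted p = 0.0501). ATP5MC1 fell in 253J (-0.84 ± 0.16) and RT112 (-1.395 ± 0.170), but in J82 and TCCSUP its log2 fold changes were 0.13 ± 0.16 and 0.12 ± 0.17. The response differed between the lines for ATP5MC1 (interaction adjusted p = 1.38e-04) and for ATP5MC3 (3.33e-04).

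The mix of the 3 genes shifted in each line. Per kilobase, ATP5MC3 was 24.6% and 25.4% of their sum in 253J control and 51.5% and 53.9% with CM-1758. In J82 it was 35.0% and 34.9% in control and 43.5% and 47.4% with CM-1758. In RT112 it went from 54.4% and 54.1% to 62.3% and 62.2%, and in TCCSUP from 34.2% and 32.99% to 50.1% and 45.9%. The treated libraries held the larger ATP5MC3 share in all 4 lines. The sum itself was 390 and 356 CPM per kb in RT112 control and 219 and 203 with CM-1758, and 393 and 362 against 352 and 308 in 253J. In TCCSUP it was 210 and 245 against 208 and 207, and in J82 the groups overlapped, at 355 and 443 against 375 and 457. These sums are scaled by TMM. The mean TMM factor was 0.930 in 253J control and 1.12 with CM-1758, and 0.904 and 1.12 in TCCSUP. The lower sums in 253J and TCCSUP thus depend on the scaling. These genes have processed copies in the genome, and how reads shared with such copies were counted is not given in the sources used here.

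**Figure D4:**
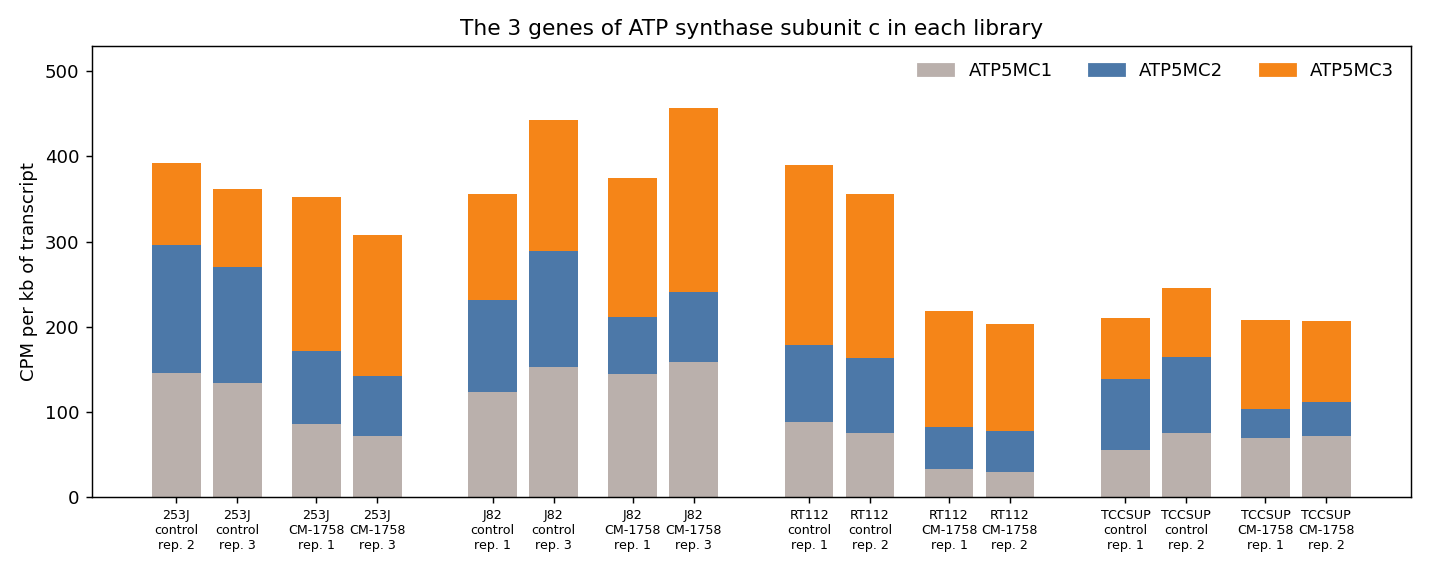
CPM per kilobase of transcript (vertical axis) of the 3 genes for ATP synthase subunit c, stacked, in each of the 16 libraries (horizontal axis). The ATP5MC3 segment takes a larger share of the bar with CM-1758 than in control in all 4 lines. With the TMM scaling drawn here, both whole bars with CM-1758 are lower than both controls in 253J, RT112 and TCCSUP. In 253J and TCCSUP this depends on the scaling.

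Complex I is the largest complex. Of its 37 nuclear subunits tested, 11 rose and 12 fell in 253J, 2 and 10 in J82, 0 and 22 in RT112, and 2 and 14 in TCCSUP. The shares higher and lower were 29.7% and 32.4% in 253J (against 28.8% and 22.4% of all genes). They were 5.41% and 27% in J82 (against 24% and 18.5%). In RT112 they were 0% and 59.5% (against 27.4% and 20.2%), and in TCCSUP 5.41% and 37.8% (against 32% and 22.1%). The share called lower in RT112 was 59.5% in complex I, 62.5% in complex III, 66.7% in complex V and 60% of the 15 complex IV genes. It was 81.8% of the common complex IV subunits. In complex II, 1 of 4 subunits was called lower and 1 higher. Of the core subunits, which bind the flavin and the iron-sulfur clusters, NDUFV1 rose in 253J (log2 fold change 0.74 ± 0.19) and TCCSUP (0.77 ± 0.19), from 106 and 91.0 to 179 and 150 CPM in 253J. NDUFS3 fell in J82 (-0.74 ± 0.17), RT112 (-1.10 ± 0.18) and TCCSUP (-0.55 ± 0.18), and NDUFS7 in RT112 (-0.996 ± 0.172) and TCCSUP (-0.57 ± 0.17). NDUFS1 and NDUFV2 were called in no line. NDUFB11, an accessory subunit, fell in 253J from 136 and 141 to 68.6 and 64.6 CPM, and also in RT112 (-1.36 ± 0.14) and TCCSUP (-0.99 ± 0.14), while J82 held 94.8 and 102 CPM in control and 86.3 and 103 CPM with CM-1758 (interaction adjusted p = 2.88e-04). NDUFA1 fell in 253J, RT112 and TCCSUP as well, most in RT112 (-1.38 ± 0.17).

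Complex I had calls in both directions in 253J, as had all genes (29.7% higher and 32.4% lower, against 28.8% and 22.4%). There NDUFB3, an accessory subunit named here after its values were seen, had the highest log2 fold change of the complex (1.34 ± 0.20). It went from 30.2 and 26.05 to 73.4 and 69.0 CPM, and NDUFB11 had the lowest log2 fold change (-1.06 ± 0.14). NDUFB9 fell in 253J (-0.90 ± 0.12), J82 (-0.33 ± 0.12) and RT112 (-0.76 ± 0.12) and had 0.17 ± 0.12 in TCCSUP. NDUFC1 fell in 253J (-0.76 ± 0.22), J82 (-1.15 ± 0.23) and RT112 (-0.76 ± 0.23).

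Complex II has 4 subunits, which also form the succinate dehydrogenase of the citric acid cycle. SDHC, a membrane anchor, rose 2.17-fold in 253J, from 21.1 and 21.7 to 44.8 and 48.1 CPM (log2 fold change 1.12 ± 0.12, adjusted p = 3.22e-06) and rose less in RT112 (0.35 ± 0.12, adjusted p = 0.026), a call that ended without any of 3 of the 4 RT112 libraries. SDHC responded more in 253J than in RT112 by 0.76 ± 0.17 (adjusted p = 0.0037) and than in TCCSUP by 1.27 ± 0.17 (adjusted p = 7.25e-05). SDHD, the other anchor, fell in RT112 from 156 and 148 to 77.3 and 73.2 CPM (-1.01 ± 0.17). SDHA, the flavoprotein that oxidizes succinate, fell in 253J (-0.43 ± 0.17, adjusted p = 0.042) and rose in TCCSUP (0.44 ± 0.17, adjusted p = 0.039). SDHB, the iron-sulfur subunit, was called in no line.

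In complex III and in RT112, 5 of 8 subunits fell (62.5%, against 20.2% of all genes) and 0 rose (against 27.4%). UQCRC2 and UQCRFS1, a core protein and the Rieske iron-sulfur protein, had log2 fold changes of -0.72 ± 0.17 and -0.61 ± 0.18 there. In 253J, UQCRH and UQCRQ, small subunits beside the cytochromes, rose (0.74 ± 0.21 and 0.62 ± 0.16), which is 25% of the complex, against 28.8% of all genes. In TCCSUP 0 of 8 were called, against 32% of all genes higher and 22.1% lower. UQCRC1 was called in no line. UQCRHL, a near-copy of UQCRH, was at 0.512 to 1.28 CPM on average, and reads of these genes may be shared.

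Complex IV without its alternative isoforms, with which COX7A2L was counted, gave a different order of the lines. Of 11 common subunits, counting NDUFA4, which is named for complex I and found in complex IV, 5 rose and 2 fell in J82, 1 and 1 in 253J, 2 and 2 in TCCSUP, and 0 and 9 in RT112. The shares higher and lower were 45.5% and 18.2% in J82 (against 24% and 18.5% of all genes). They were 9.09% and 9.09% in 253J (against 28.8% and 22.4%) and 18.2% and 18.2% in TCCSUP (against 32% and 22.1%). In RT112 they were 0% and 81.8% (against 27.4% and 20.2%). COX6C rose in J82 from 107 and 143 to 192 and 260 CPM (log2 fold change 0.85 ± 0.18) and fell in RT112 (-0.53 ± 0.18). NDUFA4 rose in J82 from 86.4 and 97.9 to 147 and 172 CPM (0.79 ± 0.13) and fell in RT112 from 144 and 132 to 86.7 and 79.8 CPM (-0.73 ± 0.13), a difference of 1.52 ± 0.18 between the lines (adjusted p = 3.20e-05). COX4I1, the common form of the largest nuclear subunit, fell in RT112 (-0.94 ± 0.13) and had -0.20 ± 0.13, -0.19 ± 0.13 and -0.15 ± 0.13 in 253J, J82 and TCCSUP. COX5A and COX5B, which sit on the matrix side, fell in RT112 as well (-0.61 ± 0.14 and -0.72 ± 0.16), and COX5A also fell in J82 (-0.58 ± 0.14). COX6A1 rose in 253J (0.54 ± 0.16), J82 (0.60 ± 0.16) and TCCSUP (0.52 ± 0.16), and was the most abundant member per kilobase in 253J, RT112 and TCCSUP controls. COX8A fell in 253J (-0.66 ± 0.21), RT112 (-0.89 ± 0.21) and TCCSUP (-0.76 ± 0.21). COX7A2L, which helps join complexes III and IV into supercomplexes, rose in 253J from 67.0 and 57.6 to 146 and 134 CPM (1.17 ± 0.17), and the response in 253J exceeded that in RT112 by 1.07 ± 0.24 (adjusted p = 0.0037).

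Of the 18 complex V genes, 8 rose and 3 fell in 253J, 1 and 3 in J82, 0 and 12 in RT112, and 3 and 5 in TCCSUP. The shares higher and lower were 44.4% and 16.7% in 253J (against 28.8% and 22.4% of all genes). They were 5.56% and 16.7% in J82 (against 24% and 18.5%). In RT112 they were 0% and 66.7% (against 27.4% and 20.2%), and in TCCSUP 16.7% and 27.8% (against 32% and 22.1%). The F1 head makes the ATP, and its catalytic beta subunit, ATP5F1B, fell in RT112 (-0.70 ± 0.18) and TCCSUP (-0.71 ± 0.18). The alpha subunit, ATP5F1A, fell in RT112 (-0.68 ± 0.16). ATP5PF, of the outer stalk, rose in 253J from 19.9 and 16.2 to 42.3 and 35.1 CPM (1.10 ± 0.18) and in TCCSUP (0.50 ± 0.17), and fell in RT112 (-0.54 ± 0.17). ATP5IF1, which blocks the enzyme from running backwards, fell in J82 (-0.44 ± 0.15, adjusted p = 0.022) and RT112 (-0.38 ± 0.15, adjusted p = 0.041).

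Of the noncoding neighbours, NDUFA6-DT, which starts beside NDUFA6 in the other direction, rose in 253J from 1.52 and 1.19 to 4.28 and 4.25 CPM (log2 fold change 1.65 ± 0.42), in J82 (1.70 ± 0.51) and in TCCSUP (1.40 ± 0.44). In RT112 it had means of 3.31 and 3.44 CPM (0.06 ± 0.39), while NDUFA6 fell in all 4 lines. NDUFV2-AS1 rose in RT112 (1.502 ± 0.516) and TCCSUP (2.32 ± 0.56), at group means of at most 1.29 CPM, and NDUFB2-AS1 was called in no line. Whether counting used strand is not given in the sources used here, so reads of a gene and its antisense partner may not be told apart.

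The response differed between the lines in 49 of the 89 members by the interaction F test (55.1%, against 51.9% of all genes). Opposite calls, higher in 1 line and lower in another, were made for 12 members (13.5%, against 12.9%). Of these, 7 were higher in 253J and lower in RT112 (7.87%, against 1.86%): ATP5F1E, ATP5MC3, ATP5MD (now ATP5MK), ATP5PF, NDUFB5, NDUFV3 and UQCRQ. No member was higher in RT112 and lower in 253J. In the direct contrast, the response was higher in 253J than in RT112 for 43 members (48.3%, against 13.7% of all genes) and lower for 0 (against 16.3%), and the median difference over the members was 0.68 (log2). J82 exceeded RT112 in 25 (28.1%, against 11%) and was below it in 0 (against 11.2%). RT112 exceeded TCCSUP in 3 (against 14.1%) and was below it in 17 (against 13.4%). Called either way, this pair differed in 22.5% of the members (against 27.5% of all genes). The share was 20.2% between 253J and J82 (against 30%) and 20.2% between 253J and TCCSUP (against 28.6%). Between J82 and TCCSUP it was 6.74% (against 22.2%), with a median difference of 0.01. Without 253J control replicate 3 the 43 members became 25, without 253J CM-1758 replicate 1 they became 28, and without RT112 control replicate 1 and CM-1758 replicate 2 they became 26 and 27, with 0 in the other direction each time.

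**Figure D5:**
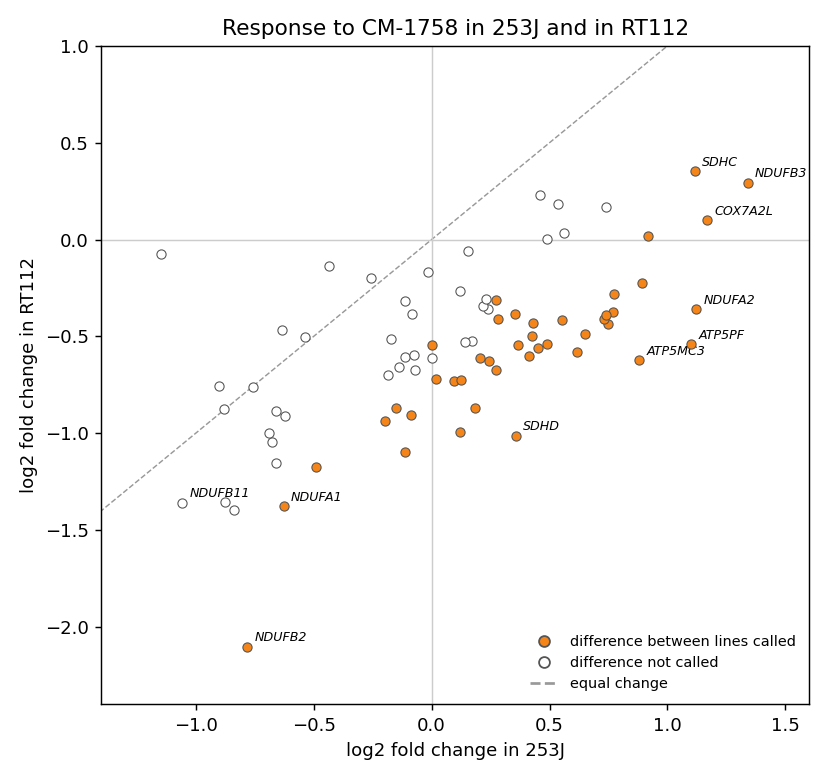
Log2 fold change of CM-1758 against control in 253J (horizontal axis) and in RT112 (vertical axis) for 80 subunit genes, orange where the difference between the lines was called (42 genes). The dashed line marks equal change, and every orange point lies below it, on the side of a higher response in 253J.

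Before treatment the lines also differed. The control level was called different between lines in 69 members (77.5%, against 78.8% of all genes). J82 lay above TCCSUP in 42 members (against 25.6% of all genes) and below it in 5 (against 22.4%), with a median difference of 0.43 (log2). UQCRC1 had control means of 84.3 CPM in 253J, 100.1 in RT112, 156 in TCCSUP and 211 in J82. NDUFS8 was at 28.7 and 29.9 CPM in 253J and 111 and 139 CPM in J82, with RT112 and TCCSUP between at 46.3 to 51.7 CPM. RT112 and TCCSUP did not differ beyond their spread in NDUFS8 (log2 difference 0.08 ± 0.18, adjusted p = 0.757). NDUFB9 was lowest in TCCSUP, at a mean of 69.4 CPM against 146 to 171 CPM in the other lines, and ATP5PF was highest in RT112, at 58.8 CPM against 18.0 to 21.8 CPM.

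Genes that build the complexes or work beside them were counted in lists. In RT112, where 20.2% of all genes were called lower, 10 of 16 assembly factors of complex I fell (62.5%) and 0 rose, 14 of 25 for complexes IV and V fell (56%) and 0 rose, and 7 of 10 for complexes II and III fell (70%) with 1 higher. In 253J, where 28.8% of all genes were higher and 22.4% lower, these lists had 7 higher and 3 lower (43.8% and 18.8%), 8 and 2 (32% and 8%), and 2 and 3 (20% and 30%). CYC1, the cytochrome c1 subunit of complex III, which the symbol rule does not include, fell in all 4 lines, with log2 fold changes of -1.30 in RT112, -0.93 in 253J, -0.80 in J82 and -0.78 in TCCSUP. COQ2, which joins the tail of ubiquinone to its ring, fell in 253J (-1.52 ± 0.15), RT112 (-0.99 ± 0.15) and TCCSUP (-1.29 ± 0.15). COQ2 and CYC1 had the lowest mean log2 fold changes among the called genes of a list of 13. COQ3 and COQ8A had the highest (0.78 and 0.57). In this list 5 were called higher and 4 lower in 253J (38.5% and 30.8%). In J82 2 and 5 were called (15.4% and 38.5%, against 24% and 18.5% of all genes). In RT112 it was 0 and 8 (0% and 61.5%), and in TCCSUP 3 and 4 (23.1% and 30.8%, against 32% and 22.1%).

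Of the 10 transcription regulators of these genes, 1 rose and 7 fell in 253J, 1 and 2 in J82, 1 and 5 in RT112, and 3 and 5 in TCCSUP. The share lower was 70%, 20%, 50% and 50%, against 22.4%, 18.5%, 20.2% and 22.1% of all genes. The share higher was 10%, 10%, 10% and 30%, against 28.8%, 24%, 27.4% and 32%. PPARGC1A, the coactivator PGC-1 alpha that drives mitochondrial genes, rose in 253J from a mean of 0.497 to 4.97 CPM (log2 fold change 3.30 ± 0.52), in TCCSUP from 5.05 to 17.8 CPM (1.81 ± 0.40), and in RT112 from 0 to a mean of 2.69 CPM. In J82, where its control mean was 18.0 CPM, the change of 0.54 ± 0.37 did not pass. Of the 15 genes that maintain and read mitochondrial DNA, 2 rose and 8 fell in RT112 and 4 and 1 in 253J. The shares were 13.3% and 53.3% in RT112 (against 27.4% and 20.2% of all genes) and 26.7% and 6.67% in 253J (against 28.8% and 22.4%). Of 18 genes of pyruvate dehydrogenase and the citric acid cycle, 6 rose and 4 fell in 253J, 2 and 4 in J82, 2 and 6 in RT112 and 4 and 8 in TCCSUP. In 253J these shares, 33.3% and 22.2%, were near those of all genes (28.8% and 22.4%). They were 11.1% and 22.2% in J82 (against 24% and 18.5%) and 11.1% and 33.3% in RT112 (against 27.4% and 20.2%). In TCCSUP they were 22.2% and 44.4% (against 32% and 22.1%).

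In a list of 9 genes of adenine nucleotide and phosphate carriers, 2 were called higher and 3 lower in 253J (22.2% and 33.3%, against 28.8% and 22.4% of all genes). In J82 it was 0 and 4 (0% and 44.4%, against 24% and 18.5%). In RT112 it was 2 and 4 (22.2% and 44.4%, against 27.4% and 20.2%), and in TCCSUP 1 and 3 (11.1% and 33.3%, against 32% and 22.1%). ADP/ATP carriers exchange the product of ATP synthase across the membrane. SLC25A5 and SLC25A4 had the lowest and highest mean log2 fold change among the called genes of the list. SLC25A5, the form of proliferating cells, fell in all 4 lines (log2 fold change -1.21 ± 0.17 in J82, -1.04 ± 0.17 in TCCSUP, -0.74 ± 0.17 in RT112 and -0.57 ± 0.16 in 253J). SLC25A4, the form of muscle and heart, rose in 253J from a mean of 9.69 to 139.9 CPM (3.85 ± 0.17), in TCCSUP (1.20 ± 0.15) and in RT112 (0.79 ± 0.15), and had -0.05 ± 0.15 in J82, where its control mean was 66.7 CPM.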

How the data were processed

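Total RNA of 4 bladder cancer lines was sequenced in 16 libraries. The deposited table holds whole-number counts per gene and library, not normalized, which the authors made after alignment. The labels' processing notes name HISAT2, StringTie and GRCh37, and the counting step, its strand setting and its treatment of reads with several matches are not given in the sources used here. No column was left over (0). The study's methods describe the replicates of a group as independent, and p-values rest on 2 libraries per group.

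The members and lists were chosen with earlier results of these data known. Counts were fitted with edgeR 4.0.16 (R 4.3.3): low counts were removed by its default filter, libraries were scaled by TMM, and a quasi-likelihood model of the 8 groups, with 8 residual degrees of freedom, was tested in each line, between lines by an F test and between pairs of lines. P-values were adjusted over all genes tested (Benjamini-Hochberg, threshold 0.05). Members named with values were the 3 highest and 3 lowest calls of each line, those called alike in all 4 lines, the 5 smallest p-values for the response difference and for the control level, core subunits and isoform groups. Others were named after their values were seen, and an item that the rule would name is not reported here. CPM values are scaled by TMM, and a share of counts is a percent of the unscaled total. A fold against a group at 0 used a floor of 3 counts per library. Such limits cover counting error only. Lengths came from GENCODE and promoters from RefSeq, both on GRCh38. Alternatives were other scalings, filters, thresholds, DESeq2 1.42.0, a replicate block, each line alone and each library left out. The fits were tested on simulated data.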

Additional observations from a re-analysis of the deposited data

Results flagged for a closer look

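Of the 50 members named by rule and tested, 26 responded differently between the cell lines by the interaction F test of edgeR, a share near the 51.9% of all genes. A further limit is that 5 of the 50 were named for the smallest p of this same test. In complex I the adjusted p was 0.0113 for NDUFA1, 2.88e-04 for NDUFB11, 0.00608 for NDUFB2, 3.70e-04 for NDUFB9, 0.0232 for NDUFS3 and 0.00663 for NDUFS7. In complex II it was 0.0227 for SDHA, 1.93e-04 for SDHC and 0.00176 for SDHD, and in complex III it was 0.0312 for UQCRC2 and 0.0244 for UQCRH. In complex IV it was 6.87e-05 for NDUFA4, 0.00546 for COX4I1, 0.0184 for COX5A, 0.0185 for COX5B, 0.0147 for COX6B1, 5.08e-04 for COX6B2, 0.00263 for COX6C, 0.0118 for COX7A2, 0.0095 for COX7A2L, 0.0211 for COX7B and 0.0016 for COX7B2. In complex V it was 1.38e-04 for ATP5MC1, 3.33e-04 for ATP5MC3 and 4.67e-04 for ATP5PF. It was 0.0458 for the readthrough row ATP5MF-PTCD1, whose counts in treated 253J were 0 and 289.

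The pseudogene rows left out of the comparisons held more counts with CM-1758 in 253J, RT112 and TCCSUP, but not in J82. As a percent of the members' counts they were 0.151 and 0.175 in treated 253J, 0.291 and 0.308 in treated RT112, and 0.206 and 0.292 in treated TCCSUP, all above the highest control library. In J82 they were 0.139 and 0.123 with CM-1758 and 0.132 and 0.112 in control, which overlap. Reads of a member that match a pseudogene may be counted in either row, and the part of this in the values was not tested.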

How the results depend on the processing

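Library size alone gave 47 higher and 7 lower members in 253J (median 0.49), 19 higher in J82, a median of -0.35 in RT112, and 29 higher and 8 lower in TCCSUP with a median of 0.25, which reversed. The TCCSUP median also reversed under upper quartile scaling (0.11), TMM on the more abundant genes (0.11) and at least 10 counts in every library (0.061), and 13 were lower in TCCSUP under the first and second of these. In J82, 16 were higher under RLE, upper quartile, TMM on the more abundant genes and at least 10 counts, and 17 under DESeq2. With at least 10 counts 1 was higher in RT112, since COX6B2, COX7B2 and NDUFV2-AS1 had libraries with fewer counts and were not tested. J82 alone gave 4 higher and 9 lower. At an adjusted p under 0.01, 18 were higher and 11 lower in 253J, 5 higher in J82, 2 higher in RT112, 6 higher and 13 lower in TCCSUP, and 26 differed between lines. With a log2 fold change beyond 2 as well, 1, 1, 2 and 2 were higher and 0, 0, 1 and 0 lower in 253J, J82, RT112 and TCCSUP.

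Leaving out each library gave 13 to 23 higher and 8 to 16 lower in 253J, 4 to 23 and 8 to 23 in J82, 2 to 3 and 28 to 46 in RT112, and 6 to 11 and 11 to 19 in TCCSUP. Medians ranged over 0.12 to 0.30, -0.17 to 0.16, -0.63 to -0.42 and -0.09 to -0.01. The J82 median turned below 0 without control replicate 1 (-0.13) and without CM-1758 replicate 3 (-0.17). Response differences numbered 34 to 60 and control differences 61 to 81. The log2 fold change of ATP5MF-PTCD1 in 253J ran from -5.62 without 253J CM-1758 replicate 3, where it reversed, to 5.42 without CM-1758 replicate 1.

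With the replicate block, 26 members were higher and 16 lower in 253J, 17 and 19 in J82, 4 and 61 in RT112 and 16 and 27 in TCCSUP, and 62 responses differed. A correlation used to judge pairing of same-numbered libraries, which does not measure how alike their levels are, was taken across genes. It was 0.0529, 0.218, 0.0427 and 0.0173 in 253J, J82, RT112 and TCCSUP. It was over 0.1 in J82 alone, so the numbers were not taken to pair the samples. Over the members alone it was 0.0861, 0.353, -0.422 and 0.420. Of 2769 refits of named genes by line, 2449 kept direction and call, 206 lost the call, 113 gained it and 1 reversed. The causes of these changes were not tested, apart from the count filter. With 2 libraries a group, genes at a few counts cannot be resolved.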
